A study of Mus musculus with 8 samples.

Results

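Genes of MHC class I, MHC class II and the machinery that loads peptides on them were examined in adipocyte precursors (APs), mesenchymal cells of the dermis that can become fat cells. They were taken from the transcript table by name: every gene whose symbol begins with H2-, plus B2m, Tap1, Tap2, Tapbp, Tapbpl, Cd74, Ciita, Nlrc5, Calr and Erap1. The rule took 63 isoforms of 53 genes out of 34535 isoforms of 24358 genes, and 43 of the 53 are H2- genes. The rule itself uses names and no measured value. One of the 53, H2-Ke6, carries the prefix for its place in the MHC region and encodes a hydroxysteroid dehydrogenase.

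The cells were sorted by flow cytometry from dermis, the mice being C57/Bl6 males aged 7 weeks. No transgene or drug is named, and neither are the sort markers. Of the 8 samples, 6 came from nonwounded dorsal skin and 2 from the wound bed on day 5 after wounding. The table gives 1 FPKM per isoform and group (a read level per transcript length and per library size, which lets genes be compared) and the authors' p-value for the comparison. It holds no value per sample, so no SD can be given, the overlap of the groups cannot be seen and sequencing depth is unknown. Whether the samples are separate animals is not stated, in which case the p-values cover only the spread of these samples, which may be technical. Pairs of FPKM are given with the wound bed first and nonwounded skin second.

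MHC class I molecules sit on most nucleated cells. A heavy chain pairs with beta-2-microglobulin and holds a peptide made by the proteasome, carried into the endoplasmic reticulum by the TAP transporter, trimmed there and fitted with the help of tapasin and calreticulin. MHC class II molecules pair an alpha with a beta chain, travel with the invariant chain Cd74 to endosomes and exchange its remnant for a peptide under the control of H2-DM. Class II is best known from dendritic cells, macrophages and B cells, and interferon gamma can induce it in other cells, fibroblasts included. The transactivators Nlrc5 and Ciita drive the class I and the class II genes.

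Class II genes had the largest share of called members. An isoform is called here at a Benjamini-Hochberg adjusted p under 0.05, computed from the p-values of the authors' deposited table over all 17775 isoforms they tested. H2-Aa, H2-Ab1, H2-Eb1 and Cd74 rose in the wound bed, by log2 fold changes between 1.0 (H2-Eb1) and 2.0 (H2-Ab1). Of the class I heavy chains, H2-Q4 (2.22) and H2-T22 (1.14) rose, and of the loading factors the major isoform of Tapbp (1.12). Summed over its isoforms Tapbp came to 0.37, and H2-T22 summed with H2-T9 of the same locus came to 0.23, both without a test. B2m and the classical class I genes H2-K1 and H2-D1 stood among the 4 highest levels in both groups and were not called.

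The authors tested 40 of the 63 isoforms, in 34 genes. Of these, 8 isoforms in 7 genes were called higher and 0 lower, beside 5.66% higher and 7.25% lower among all tested isoforms. At an unadjusted Cuffdiff p under 0.05, 14 were higher and 0 lower. For counts of genes, each gene stands for its major isoform, the tested one with the larger sum of both FPKM, and enters if the larger of its group FPKM is 1 or more. In this count 33 of the 53 genes remain, with 7 higher (21.2%) and 0 lower, beside 7.39% higher and 8.70% lower of 12961 genes. At an unadjusted Cuffdiff p under 0.05, 13 of the 33 were higher and 0 lower, beside 1759 higher and 2385 lower of the 12961. Among the 33 genes the log2 fold change was above 0 in 29 and below 0 in 4, and the median was 0.68, against -0.14 over all genes. The remaining 26 were not called.

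**Figure D1:**
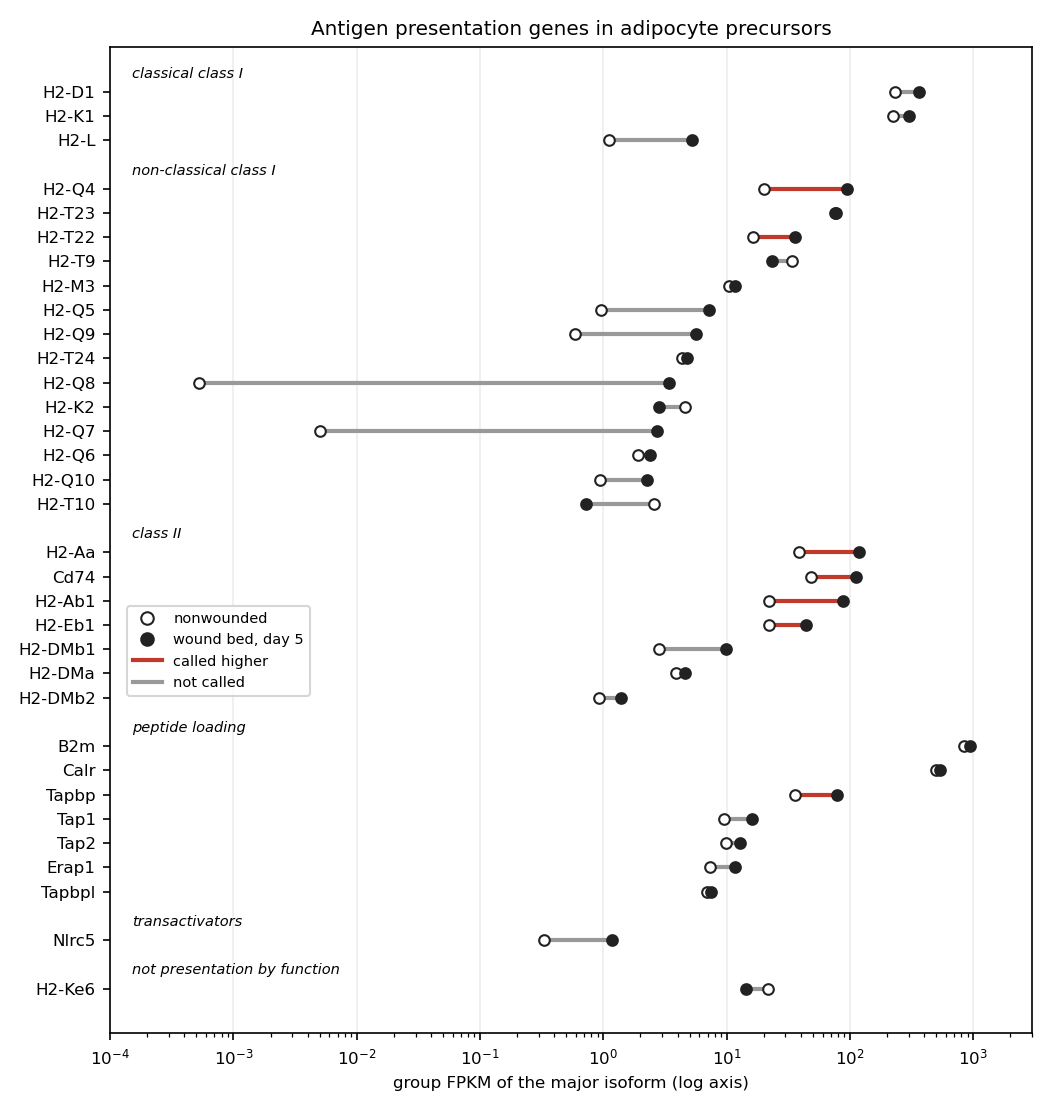
Group FPKM (horizontal log axis) of the major isoform of 33 member genes, ordered by role and by wound bed level, with open circles for nonwounded skin, filled circles for the wound bed and red bars where the gene was called higher. The red bars lie at H2-Q4, H2-T22, H2-Aa, Cd74, H2-Ab1, H2-Eb1 and Tapbp, while B2m, Calr, H2-D1 and H2-K1 keep the 4 highest levels in both groups.

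The proximal promoters of class I and class II genes carry a shared block of short elements, known as the X and Y boxes, that the enhanceosome of RFX, CREB and NF-Y proteins binds. Class I promoters are also known for an NF-kB element and an interferon response element farther upstream. Because member genes moved to different degrees here, 5 promoters are shown. They are those of the class II genes H2-Aa and H2-Eb1, the called class I genes H2-Q4 and H2-T22, and H2-D1. The last is a classical class I gene that was not called. Whether each promoter holds the whole block was not tested. Each is the 250 bases before the annotated start, 5′ to 3′ on the gene's strand, from RefSeq on GRCm38.p6. Capitals mark matches to the 6 motifs named after the sequences. H2-Aa lies on the minus strand at chr17:34287824-34288073, H2-Eb1 on the plus strand at chr17:34305617-34305866, H2-Q4 on the plus strand at chr17:35379367-35379616, H2-D1 on the plus strand at chr17:35262844-35263093 and H2-T22 on the minus strand at chr17:36042743-36042992.
H2-Aa: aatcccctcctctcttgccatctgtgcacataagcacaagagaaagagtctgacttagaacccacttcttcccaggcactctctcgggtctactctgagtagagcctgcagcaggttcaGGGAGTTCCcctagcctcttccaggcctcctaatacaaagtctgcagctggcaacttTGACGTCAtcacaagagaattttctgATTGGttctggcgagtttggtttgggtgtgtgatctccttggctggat
H2-Eb1: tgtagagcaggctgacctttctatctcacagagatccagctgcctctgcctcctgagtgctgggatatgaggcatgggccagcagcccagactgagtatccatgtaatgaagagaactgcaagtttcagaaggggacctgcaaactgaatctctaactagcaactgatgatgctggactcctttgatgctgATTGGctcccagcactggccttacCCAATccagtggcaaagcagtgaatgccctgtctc
H2-Q4: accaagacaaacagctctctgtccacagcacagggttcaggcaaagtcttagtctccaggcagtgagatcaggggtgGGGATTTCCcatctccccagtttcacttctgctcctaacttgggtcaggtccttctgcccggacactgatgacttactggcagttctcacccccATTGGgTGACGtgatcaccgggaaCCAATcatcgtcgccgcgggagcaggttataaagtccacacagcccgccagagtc
H2-D1: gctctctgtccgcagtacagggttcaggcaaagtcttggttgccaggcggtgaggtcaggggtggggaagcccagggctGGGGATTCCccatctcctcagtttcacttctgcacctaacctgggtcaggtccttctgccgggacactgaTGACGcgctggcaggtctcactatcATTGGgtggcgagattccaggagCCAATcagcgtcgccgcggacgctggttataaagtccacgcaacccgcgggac
H2-T22: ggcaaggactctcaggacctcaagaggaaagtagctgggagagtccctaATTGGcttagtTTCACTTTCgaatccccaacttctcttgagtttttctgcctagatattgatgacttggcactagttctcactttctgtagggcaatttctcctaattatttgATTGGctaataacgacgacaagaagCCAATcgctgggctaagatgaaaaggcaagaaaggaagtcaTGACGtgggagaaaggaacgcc

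The motifs were searched on both strands: Y box CCAAT, X2 or CRE core TGACG, NF-kB core GGGNNTTCC, interferon-stimulated response element (ISRE) core GAAANNGAA, gamma-activated site (GAS) TTCNNNGAA and GC box GGGCGG. Promoter windows were found for 36 of the 53 genes, 39 windows in all, and for 5 of the 7 called genes. H2-Ab1 and Cd74 have none here. A Y box stood in 34 of the 39 windows (87.2%), against 33.8% of all 32851 windows of this length. The X2 or CRE core stood in 15 (38.5%, against 17.8%), the NF-kB core in 9 (23.1%, against 4.98%) and the GC box in 4 (10.3%, against 32.7%). The ISRE core stood in 4 (10.3%, against 7.13%) and the GAS in 3 (7.69%, against 7.02%). A match describes letters and is not evidence of binding, and a window without one may hold a variant spelling. Genes of one family share ancestry, so the windows are not independent.

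In the sequences above, H2-Q4 and H2-D1 held an NF-kB core and a pair of Y boxes in the same order and orientation. The NF-kB core began 173 bases before the start in H2-Q4 and 171 bases before it in H2-D1. A Y box in reverse orientation began 79 bases upstream in H2-Q4 and 76 in H2-D1, and one in forward orientation 55 and 53 bases upstream. The X2 or CRE core lay 73 bases upstream in H2-Q4 and 101 in H2-D1, on different sides of the reverse Y box. Where H2-D1 reads cactgaTGACGcgctgg, H2-Q4 reads cactgatgacttactgg, which has no match to this core. The same 3 kinds of motif were thus matched in both promoters, but not all at the same places. H2-Q4 rose while H2-D1 was not called, a difference between genes that was not tested.

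H2-Aa held the palindrome TGACGTCA from 74 to 67 bases before the start and a reverse Y box 48 bases upstream. H2-Eb1 held Y boxes 59 and 35 bases upstream and no match to the other 5 motifs. H2-T22 held Y boxes 201, 88 and 63 bases upstream, an X2 or CRE core 22 bases upstream and no NF-kB core. It was 1 of the 4 windows with a match to the ISRE spelling searched, with H2-T23, B2m and Erap1, of which only H2-T22 was called. H2-Q4 and H2-D1 both hold the letters agtttcacttct, which this spelling does not match and which were not counted.

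**Figure D2:**
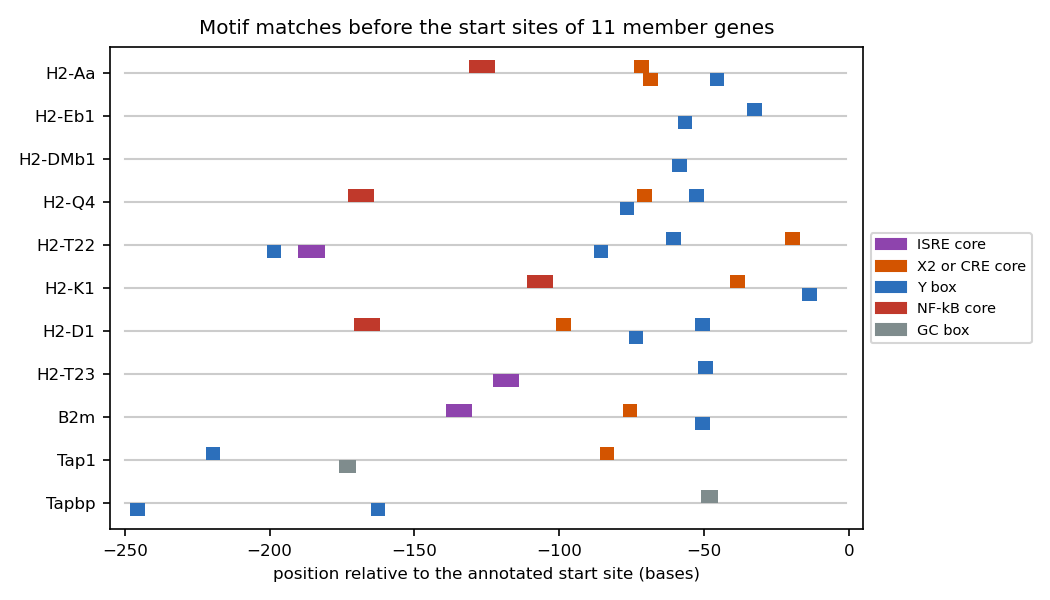
Matches to the motifs in the 250 bases before the annotated start of member genes (rows; horizontal axis in bases from the start), with blocks above the line for the spelled orientation and below it for the reverse complement. The nearest Y box to the start lies 48 bases upstream in H2-Aa, 35 in H2-Eb1, 61 in H2-DMb1 and 55 in H2-Q4, and NF-kB cores appear in H2-Aa, H2-Q4, H2-K1 and H2-D1.

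Among class II chains, H2-Aa encodes the alpha and H2-Ab1 the beta chain of the I-A molecule. H2-Aa had group FPKM of 119 and 38.4, 3.09-fold higher (log2 fold change 1.63, adjusted Cuffdiff p of 0.000882). H2-Ab1 stood at 88.6 and 22.1, a log2 fold change of 2.0 (adjusted Cuffdiff p of 0.000882), the largest rise among the called class II genes. Both p-values were the smallest that the authors' deposited table holds, 5e-05. The ratio of H2-Aa to H2-Ab1 was 1.34 and 1.73. In the table H2-Aa spans 34282751 to 34287771 and H2-Ab1 34263227 to 34269418 on chromosome 17.

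H2-Eb1 encodes the beta chain of the second class II molecule, I-E. It stood at 44.1 and 21.9, 2.02-fold higher (1.0, adjusted Cuffdiff p of 0.0178). Its partner gene, listed as the pseudogene H2-Ea-ps, was at 0 in both groups. C57BL/6 mice are known to carry a defective alpha gene and to lack I-E on the cell surface. H2-Eb2, a further beta gene, was listed at 0.0902 and 0 and was not tested.

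Cd74, the invariant chain that guides class II through the cell, was the only member with more than 1 called isoform. NM_010545 stood at 113 and 48.3, 2.33-fold higher (1.22, adjusted Cuffdiff p of 0.00715). NM_001042605 stood at 32.6 and 9.99, 3.27-fold higher (1.71, adjusted Cuffdiff p of 0.0399). Both forms rose, and the second made up 22.5% of the gene's summed FPKM in the wound bed, against 17.1% in nonwounded skin. Cd74 lies on chromosome 18 and is the only class II member outside chromosome 17.

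H2-DM edits the peptides that class II keeps, and H2-O restrains it. The beta gene H2-DMb1 stood at 9.83 and 2.81, 3.49-fold apart, and missed the call (log2 fold change 1.80, adjusted Cuffdiff p of 0.0546). Its neighbour H2-DMb2 stood at 1.40 and 0.928 (0.59, adjusted Cuffdiff p of 0.674), and 27.2% of the 50-base windows of the H2-DMb1 transcript also occur in a transcript of H2-DMb2. The alpha gene H2-DMa stood at 4.60 and 3.85 (0.26, adjusted Cuffdiff p of 0.759). Against a log2 fold change of 1.63 for H2-Aa, the values of the 3 DM genes ran from 0.26 to 1.80 without a call. H2-Oa (0.175 and 0.0541) and H2-Ob (0.203 and 0.0481), genes known chiefly from B cells, were not tested.

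Summed over all isoforms, the 11 class II genes came to an FPKM of 413 and 148, a ratio of 2.78. Of the 7 that entered the count of genes 4 were called higher (57.1%) and 0 lower, with a median log2 fold change of 1.22. Over all genes 7.39% were called higher and 8.70% lower, with a median of -0.14. Markers of leukocytes stood higher in the same column. The 7 pan-leukocyte genes summed to 85.1 and 30.4, a ratio of 2.79, with 2 called higher (Laptm5 at 29.1 and 11.5, Cd53 at 10.3 and 3.47). The 19 macrophage and monocyte genes summed to 1094 and 439, a ratio of 2.49, with 12 called higher, 0 lower and none at 0. The 12 included Cd68, Adgre1, Itgam, Lyz2, Fcgr1, Cd14, Mrc1, Tyrobp, Fcer1g, Ccr2 and Ms4a7. Among them Adgre1, which encodes the macrophage antigen F4/80, stood at 18.1 and 4.71, Cd68, a lysosomal glycoprotein gene, at 37.4 and 12.6, and Lyz2, the macrophage lysozyme, at 524 and 174. The list's extremes were Clec4n (6.59 and 0.430) and Cd163 (1.26 and 3.51), neither called. Of the other genes not called, Csf1r, C1qa, C1qb and C1qc had log2 fold changes between 0.48 (C1qa) and 0.61 (C1qb). Aif1 stood at 7.80 and 12.2 (-0.65, adjusted Cuffdiff p of 0.376). Ptprc, which encodes the leukocyte antigen CD45, stood at 4.13 and 0.453 without a call (3.19, adjusted Cuffdiff p of 0.327). The part of these markers in the class II result was not tested, and in bulk RNA more cells of a type cannot be told apart from more RNA per cell.

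Markers of B cells and of dendritic cells were the other lists of classical class II cells. All 6 B cell genes were under an FPKM of 1 in both groups as sums of their isoforms and together came to 1.16 and 0.458, with Ms4a1 and Pax5 listed at 0 in the wound bed. Of 12 dendritic and Langerhans cell genes 6 entered the count and 0 were called, beside 7.39% higher and 8.70% lower of all genes. Itgax, which encodes CD11c, stood at 1.78 and 0.150 (adjusted Cuffdiff p of 0.0533), and Cd207, the Langerhans cell lectin, at 0.0698 and 0.0821. Cd83, a maturation marker of dendritic cells, stood at 18.4 and 0.201 without a call, and Clec10a, a lectin gene of dendritic cells and macrophages, at 6.42 and 14.5 (-1.17, adjusted Cuffdiff p of 0.140). The 12 genes summed to 40.8 and 28.9. Summed over isoforms, Cd83 made up 25.2 of the wound bed sum and Clec10a 23.6 of the nonwounded sum. Among the 6 counted genes the median log2 fold change was 2.25, against -0.14 over all genes, with 4 above 0 and 2 below 0. The largest was that of Ccr7 (1.86 and 0.0103). The 4 above 0 all stood under an FPKM of 1 in nonwounded skin for the major isoform. All 9 T and NK cell genes in the table were under an FPKM of 1 in both groups and summed to 2.20 and 0.881, among them Cd3e at 0.0177 and 0.0511.

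The sorted cells carried their own markers at widely different levels, in the wound bed from 9.38 for Cd24a to 3153 for Dcn, summed over isoforms. Of 11 precursor and dermal fibroblast genes Col1a2 has no usable value in the table, and the other 10 summed to 6963 and 9012. Pdgfra, a receptor gene that marks these cells, stood at 81.2 and 78.8 (0.04, adjusted Cuffdiff p of 0.931). None of them was called higher and 2 were called lower, beside 7.39% and 8.70% of all genes. The 2 were Dpp4 and Cd24a, both surface protein genes. The summed class II level of 413 and 148 was far below the precursor sums in both groups. Of those sums Dcn made up 3153 and 3831 and Ly6a 1576 and 2691. H2-Aa, at 119 and 38.4, stood above Pdgfra in the wound bed and below it in nonwounded skin. Endothelial genes summed to 27.0 and 94.5, of which Tek made up 18.4 and 83.1. Of the 5 counted, Lyve1 was called lower, and 3 were above 0 on the log2 scale without a call (Pecam1 at 1.06, Cdh5 at 0.58 and Kdr at 0.11). Keratinocyte genes summed to 31.5 and 14.0, with Krt14 and Krt1 called higher.

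**Figure D3:**
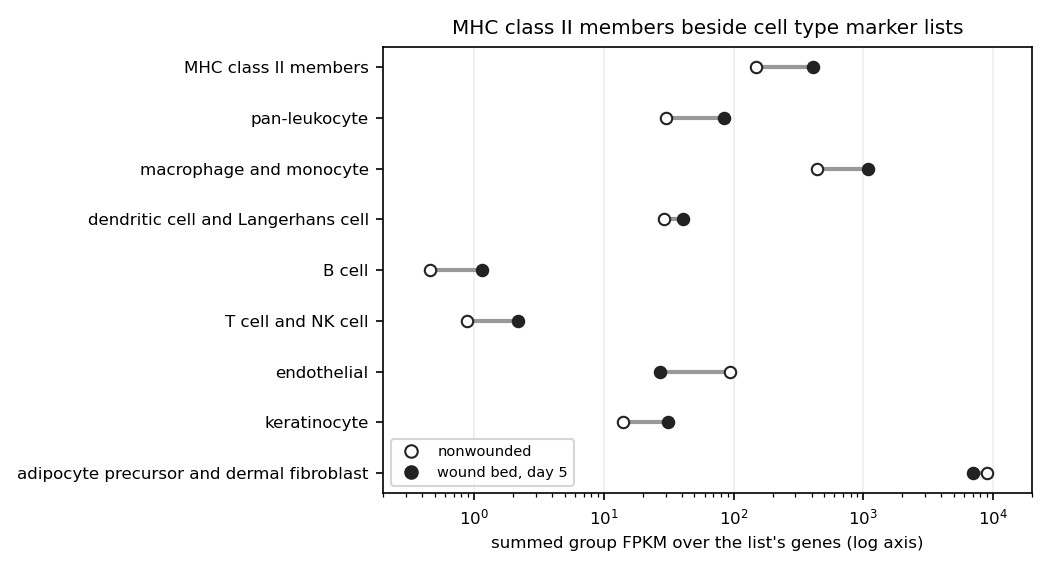
Summed group FPKM (horizontal log axis) of the class II members and of 8 marker lists, with open circles for nonwounded skin and filled circles for the wound bed. The class II members (148 to 413), the pan-leukocyte genes (30.4 to 85.1) and the macrophage genes (439 to 1094) are higher in the wound bed, as are the far lower sums of the B cell (0.458 to 1.16) and T and NK cell genes (0.881 to 2.20), and the precursor genes stand at 6963 and 9012.

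Of the 2 transactivators, Ciita, which drives class II genes, had 5 isoforms, none of them tested. They summed to 0.299 and 0.112, far below the FPKM of the class II genes. Nlrc5, which drives class I genes, stood at 1.17 and 0.331 and missed the call (log2 fold change 1.83, adjusted Cuffdiff p of 0.121).

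The classical class I heavy chains present peptides to CD8 T cells. H2-D1 stood at 362 and 234 (log2 fold change 0.63, adjusted Cuffdiff p of 0.118). H2-K1 stood at 300 and 222 (0.44, adjusted Cuffdiff p of 0.257). These were the third and the fourth highest levels of all members in both groups, and neither difference passed the test. H2-L, a class I gene of other mouse haplotypes, is listed in the same locus as H2-D1 on chromosome 17, from 35263094 to 35267497. It stood at 5.20 and 1.11 without a call (2.23, adjusted Cuffdiff p of 0.468), and its reads cannot be separated with certainty from those of H2-D1.

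Non-classical heavy chains are less variable between individuals and have special partners. H2-Q4 stood at 94.1 and 20.2, 4.66-fold higher (log2 fold change 2.22, adjusted Cuffdiff p of 0.000882), the largest rise among all called members. It moved from the 13th highest level among the 33 genes in nonwounded skin to the 7th in the wound bed. The ratio of H2-Q4 to H2-K1 was 0.0910 in nonwounded skin and 0.313 in the wound bed. Of its 50-base windows 24.3% also occur in other genes of any kind and 16.5% in other member genes, 7.68% in H2-Q6. The gene spans 35379617 to 35384674 on chromosome 17.

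H2-T23 encodes Qa-1, which presents leader peptides of other class I chains to receptors of natural killer cells. It stood at 77.7 and 76.4 (0.02, adjusted Cuffdiff p of 0.958), the smallest fold change among the 33 genes. H2-M3, which presents formylated peptides, stood at 11.7 and 10.5 (0.16, adjusted Cuffdiff p of 0.787), and H2-T24 at 4.75 and 4.33 (0.14, adjusted Cuffdiff p of 0.893). For none of these was a difference detected, in contrast to the call for H2-Q4, and the differences between genes were not tested.

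H2-T22, whose product is recognised by some gamma-delta T cells, stood at 36.1 and 16.4, 2.20-fold higher (1.14, adjusted Cuffdiff p of 0.0261). The table places H2-T9 in the same locus, chromosome 17 from 36038409 to 36042702. H2-T9 stood at 23.4 and 34.2 (-0.55, adjusted Cuffdiff p of 0.276), in the opposite direction. Summed, the pair came to 59.5 and 50.6, a log2 fold change of 0.23, smaller than that of H2-T22 alone. Of the H2-T22 windows 44.6% also occur in other members, 37.9% in H2-T10. H2-T10, annotated as a transcribed pseudogene, had its 2 isoforms at 0.721 against 2.58 and at 2.17 against 0.316, which sum to 2.90 in each group.

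The Qa-2 genes H2-Q6, H2-Q7, H2-Q8 and H2-Q9 are near copies of each other, and the table pairs H2-Q6 with H2-Q8 and H2-Q7 with H2-Q9 at single loci. H2-Q9 stood at 5.66 and 0.593 (3.25, adjusted Cuffdiff p of 0.204) and H2-Q6 at 2.40 and 1.91 (0.33, adjusted Cuffdiff p of 0.814). The 6 isoforms of the 4 genes were between 0.000192 and 5.66 in the wound bed, and none was called. H2-Q8 at 3.38 against 0.000529 and NM_010394 of H2-Q7 at 2.75 against 0.00502 gave log2 fold changes of 12.64 and 9.10, while NM_001198560 of H2-Q7 gave -12.82. These folds rest on levels near 0 in 1 group, and 36.7% of the windows of NM_010394 also occur in other members. Over all 4 genes the summed FPKM was 16.3 and 4.0, a log2 fold change of 2.03, with no test for the sum. H2-Q5, annotated as a transcribed pseudogene, stood at 7.24 and 0.964 (2.91, adjusted Cuffdiff p of 0.118), and 35.4% of its windows are shared.

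The other class I genes were low. H2-Q10, whose product the liver secretes, stood at 2.26 and 0.944 (1.26, adjusted Cuffdiff p of 0.316) and H2-Q2 at 0.721 and 0.188 (1.94, adjusted Cuffdiff p of 0.345). H2-K2, a transcribed pseudogene counted here with the non-classical genes, stood at 2.81 and 4.59 (-0.71, adjusted Cuffdiff p of 0.485). H2-Q1 (0.278 and 0.590) and H2-Bl (0.445 and 0.435) were not tested. H2-T3, which encodes the thymus leukemia antigen of the gut, and H2-M2, H2-M5 and H2-M9 stood below 0.2 in both groups. The vomeronasal genes H2-M10.1 to H2-M10.6 were listed at 0 in the wound bed and at 0.0251 or less in nonwounded skin, and H2-M1 and H2-M11 at 0 in both.

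**Figure D4:**
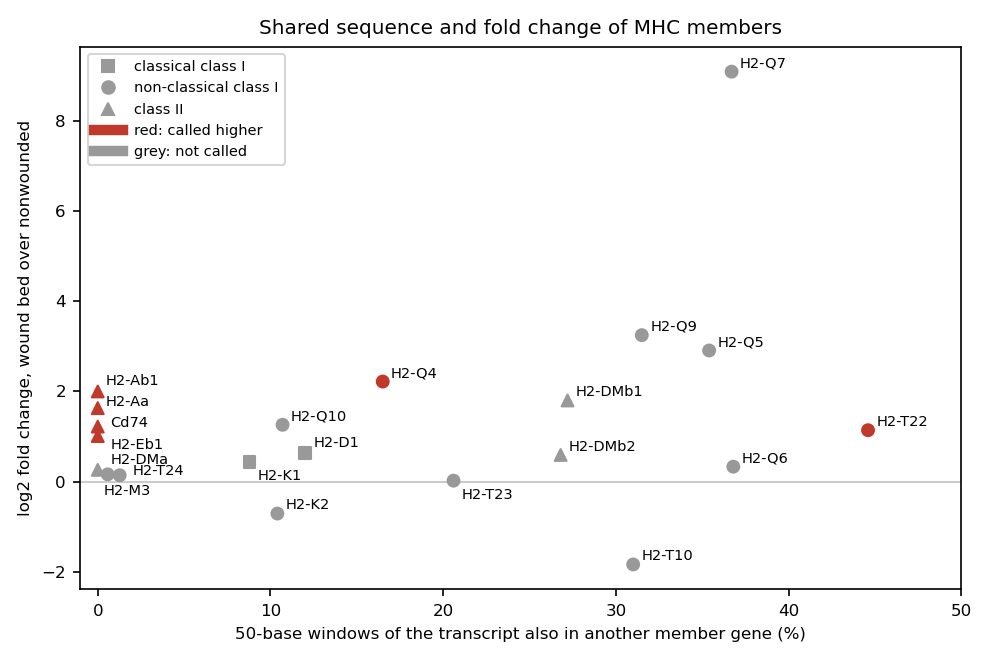
Log2 fold change (vertical axis, wound bed over nonwounded) of MHC class I and class II genes against the share of 50-base windows of the major isoform that also occur in transcripts of another member gene (horizontal axis, percent), red if called higher. The called class II genes lie at 0% shared, H2-Q4 at 16.5% and H2-T22 at 44.6%; H2-Q8, H2-L and H2-T9 have no transcript in the annotation used and are not drawn, and H2-Q9 is filed there under H2-Q7, whose windows are not counted against it.

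The called genes differed in their shared sequence. H2-Aa, H2-Ab1, H2-Eb1 and Cd74 share 0% of their windows with other members whose transcripts were matched. Members without a matched transcript, H2-Ea-ps, H2-L, H2-Q8 and H2-T9, were not compared. H2-M3 shares 0.576% and H2-T22 44.6%. H2-K1 and H2-D1 share 8.79% and 12.0%. The read length is not given in the sources used here, and windows of 50 bases were an arbitrary choice.

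Among the loading factors, B2m, the light chain of every class I molecule, had the highest level of all members. It stood at 938 and 842 (log2 fold change 0.15, adjusted Cuffdiff p of 0.747). Calr, the chaperone calreticulin, followed at 534 and 501 (0.09, adjusted Cuffdiff p of 0.860). Neither was called, and the table places B2m in a bundle with Patl2 and Trim69.

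The TAP transporter carries peptides across the membrane. Tap1 stood at 16 and 9.45 (0.76, adjusted Cuffdiff p of 0.0933) and Tap2 at 12.8 and 9.97 (0.36, adjusted Cuffdiff p of 0.469). Erap1, which trims peptides in the endoplasmic reticulum, stood at 11.8 and 7.38 (0.68, adjusted Cuffdiff p of 0.0918). Tapbpl, a peptide editor related to tapasin, stood at 7.51 and 6.91 (0.12, adjusted Cuffdiff p of 0.846). All 4 values were above 0 on the log2 scale and none passed the test, nor did the second isoform of Tap1, NM_001161730, at 1.33 and 0.569.

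Tapbp encodes tapasin, which bridges class I to TAP. Its isoform NM_009318 stood at 78.3 and 36.0, 2.17-fold higher (1.12, adjusted Cuffdiff p of 0.0102). The other isoform, NM_001025313, stood at 6.98 and 29.8 without a call (-2.09, adjusted Cuffdiff p of 0.343). The first thus made up 91.8% of the gene's FPKM in the wound bed, against 54.7% in nonwounded skin. The sum of both was 85.3 and 65.8, a log2 fold change of 0.37, with no test for the sum.

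Of the 53 genes 46 lie on chromosome 17, from 33919478 to 37483529 in the table. In this stretch, 91 other genes entered the count, with 7 called higher, 5 lower and a median log2 fold change of -0.09. The 27 members counted there had 6 called higher and a median of 0.76. Of all genes 7.39% were called higher and 8.70% lower, with a median of -0.14. H2-Ke6, the dehydrogenase gene in this stretch, stood at 14.3 and 21.5 (-0.59, adjusted Cuffdiff p of 0.318).

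Beyond the members, a list of 74 other genes of the pathway had 65 genes in the count, with 11 called higher (16.9%) and 6 lower (9.23%), beside the 7.39% and 8.70% of all genes. The median log2 fold change was 0.35. Some of the genes in the list act widely outside antigen presentation.

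**Figure D5:**
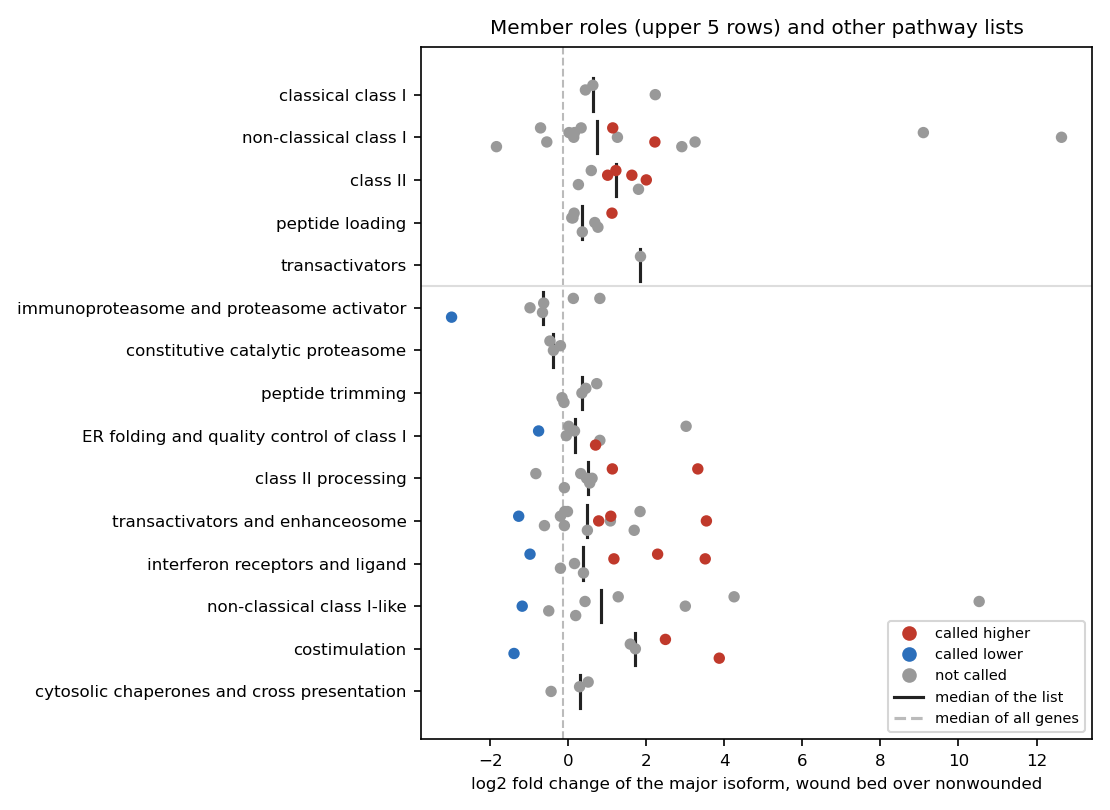
Log2 fold change (horizontal axis, wound bed over nonwounded) of the major isoform of each gene in the count, by role for the members (upper rows) and for 10 lists of other pathway genes (lower rows), with called rises in red, called falls in blue, other genes in grey and a bar for each median. The class II median is 1.22, that of the immunoproteasome and proteasome activator list is -0.64, and the dashed line marks the median of all genes at -0.14.

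The immunoproteasome makes peptides suited to class I. Psmb8 stood at 35.4 and 20.2 (log2 fold change 0.81, adjusted Cuffdiff p of 0.0733), Psmb9 at 7.42 and 11.5 (-0.63, adjusted Cuffdiff p of 0.467) and Psmb10 at 10.7 and 21.2 (-0.98, adjusted Cuffdiff p of 0.0898). These catalytic subunits were not called and did not share a direction. Psme2, a subunit of the proteasome activator, fell by 2.99 for its major isoform, to 11.1 from 88.1 (adjusted Cuffdiff p of 0.00488), while the sum of its isoforms was 88.0 and 107. The median of the 6 genes was -0.64.

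Class II processing takes place in endosomes. Ctss, the cathepsin that degrades the invariant chain in professional presenting cells, rose from 13.9 to 139 (log2 fold change 3.32, adjusted Cuffdiff p of 0.000882). Lgmn, an asparaginyl endopeptidase, rose from 96.2 to 211 (1.13, adjusted Cuffdiff p of 0.000882). Ctsl, a related cathepsin used in thymic epithelium, stood at 460 and 816 (-0.83, adjusted Cuffdiff p of 0.120), and Ifi30, a thiol reductase of endosomes, at 88.5 and 71.0 (0.32, adjusted Cuffdiff p of 0.430). In this list 2 of 8 genes were called higher (25.0%) and 0 lower, beside 7.39% and 8.70% of all genes.

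Of 13 transcription factor genes 3 were called higher (23.1%) and 1 lower (7.69%), beside 7.39% and 8.70% of all genes. Irf1, a factor of the interferon response, rose from 12.9 to 151 (3.54, adjusted Cuffdiff p of 0.000882), and the NF-kB genes Nfkb1 and Rela by 1.09 and 0.78. Rfxap, a subunit of the X box factor RFX, fell by 1.27, to 3.24 from 7.81 (adjusted Cuffdiff p of 0.0417), while Rfx5 stood at 3.52 and 3.56.

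The interferon gamma receptor genes were called in opposite directions. Ifngr1 fell by 0.98, to 30.1 from 59.3 (adjusted Cuffdiff p of 0.00239), and Ifngr2 rose by 1.17, from 11.1 to 25.1 (adjusted Cuffdiff p of 0.00368). Jak2, the kinase bound to Ifngr2, rose by 2.29, and Socs1, the feedback inhibitor of this signalling, by 3.51, from 2.96 to 33.6. Ifng, the ligand gene of this receptor, and Ifnb1, the gene of interferon beta, were not tested. Both stood under an FPKM of 1 in both groups.

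In the remaining lists, the costimulatory genes Cd80 and Icam1 rose by 2.49 and 3.87, and Icosl fell by 1.39. Cd80 went from 1.21 to 6.82, and Cd86, its partner ligand, stood at 2.85 and 0.948 without a call (adjusted Cuffdiff p of 0.148). Among class I-like genes, Fcgrt, the IgG receptor that also pairs with B2m, fell by 1.18, to 93.8 from 213 (adjusted Cuffdiff p of 0.000882), and Cd1d1, which presents lipids, stood at 7.56 and 3.11 (1.28, adjusted Cuffdiff p of 0.0538). Of the genes for folding of class I in the endoplasmic reticulum, Uggt1 rose by 0.70 and Bcap31 fell by 0.76. Canx, the chaperone calnexin, stood at 76.9 and 9.50 for its main form (3.02, adjusted Cuffdiff p of 0.151), not called, and its isoforms summed to 82.6 and 58.0. The short lists of peptide trimming, constitutive catalytic proteasome and cross presentation genes held no called gene, beside 7.39% higher and 8.70% lower of all genes. Their values ran from -0.47 for Psmb5, a proteasome subunit gene (46.9 and 64.9), to 0.73 for Lnpep, an endosomal aminopeptidase gene (10.9 and 6.59).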

How the data were processed

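RNA of sorted dermal APs was extracted with Trizol and a micro column kit and made into TruSeq mRNA libraries, per the labels' protocols. TopHat2 2.0.2, Cuffdiff 2.0.2 and the build mm9 are named in the submitters' processing notes. The authors deposited 1 FPKM per isoform and group, pooled over the samples of a group, and 1 p-value per isoform. These are not counts, so no count test was run and no test across samples was possible.

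The deposited p-value was adjusted here by Benjamini-Hochberg over 17775 tested isoforms, which gave the same calls as the authors' significance column. This step was tested on simulated data. Fold changes are wound bed over nonwounded FPKM without a pseudocount, and their median was -0.11 over the 12522 isoforms at 1 FPKM or more in each group, which was not removed. The p comes from Cuffdiff's model over 2 and 6 samples.

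Member genes, role groups, pathway lists and marker lists were chosen with earlier results of these data known. All members with a tested isoform were named. Of the other lists, genes were named if called, at a list's extreme or in a set fixed with the lists (called marker genes partly without values). Cd83, Ifi30, Cd86, Cd1d1, Rfx5, Cd207, Ms4a1, Pax5, Tek, Cdh5, Kdr, Ifng and Ifnb1 were picked after their values were seen. So were Dcn, Ly6a, Csf1r, C1qa, C1qb, C1qc and Aif1. A few genes that the rule would name are not reported here. Table positions count from 0 at the start and are printed from 1. Of 50 member genes with a GRCm38.p6 RefSeq position, 33 matched its start or end exactly, so the build is uncertain. Shared windows came from GENCODE M21 transcripts, matched for 57 of 63 isoforms, same strand only. Of the listed symbols, 2 were matched by an older name. Python 3.11.15, numpy 2.4.6, pandas 2.3.3 and matplotlib 3.10.9 were used.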

Additional observations from a re-analysis of the deposited data

How the results depend on the processing

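The counts of members called (8 isoforms and 7 genes higher, 0 lower) stayed within 1.5 times under an adjusted p threshold of 0.1, an absolute log2 fold change no smaller than 1, an FPKM minimum of 5, no FPKM minimum, adjustment over isoforms with an FPKM of at least 1, leaving out isoforms listed at 0, and leaving out members that share a locus with another member (the last chosen after seeing the data). The limits on fold change, FPKM and values of 0 could not remove any of the 8 isoforms. All 8 had a log2 fold change of 1.01 or more and a wound bed FPKM of 32.6 or more, and 0 were at 0 in nonwounded skin. At an adjusted p under 0.01, 4 isoforms and 4 genes were higher, with H2-Eb1, H2-T22 and Tapbp lost, and the other pathway genes fell to 7 higher and 3 lower. At 0.1, Erap1, H2-DMb1 and Tap1 were added. The members' median of 0.68 became 0.79 when centred on the median isoform and lay between 0.63 and 0.76 otherwise. No called member changed sign under any of these settings or as a sum of isoforms. No paired analysis was possible because the table holds 1 value per group, and leaving out replicates was not run for the same reason. Depth is unknown, so no limit for the genes listed at 0 can be given.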
